A study of Mus musculus with 8 samples.

Results

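Transcripts of T cells and natural killer (NK) cells were examined in the kidneys of NZBWF1 mice at 2 ages. NZBWF1 mice are a cross of New Zealand Black with New Zealand White and serve as a model of lupus nephritis that worsens with age. The members were picked by gene symbol, with no threshold on a measured value, and cover T lineage, checkpoint, regulatory and cytotoxic genes. Of its 38 genes, 35 were on a named row of the Clariom S Mouse array, among 19505 genes with such a row, and each of the 35 had 1 row. Lck, Cd27 and Foxp3 were not analysed here. The groups were 4 mice at 8 weeks of age (replicates 1 to 4) and 4 mice at 28 weeks (replicates 6 to 9), 1 array per mouse. All 8 mice were NZBWF1 and the tissue was kidney, and the labels name no treatment, sex or further allele. Values are log2 expression values from robust multi-array averaging (RMA), given as mean ± SD with n = 4 per age. Differences are 28 weeks minus 8 weeks on that scale, and adjusted p values are those of limma, corrected by the Benjamini-Hochberg method across the 22206 rows of the array.

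T cells recognise peptides on MHC molecules through an antigen receptor that signals through the CD3 chains, whose phosphorylated tails recruit the kinase ZAP-70 and the adaptor LAT. The coreceptors CD4 and CD8 divide T cells into helper and cytotoxic lineages, and costimulatory receptors such as CD28 and ICOS, or inhibitory ones such as CTLA-4 and PD-1, set the strength of the response. NK cells and cytotoxic T cells kill with perforin and granzymes and respond to interleukin-15 through a receptor that contains the product of Il2rb. In lupus nephritis T cells enter the kidney together with macrophages and B cells, and bulk tissue RNA reports them only as a small share of all transcripts. In such tissue more cells of a type and more RNA per cell cannot be told apart.

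The kidney label was borne out by the rows of its main cell types. The proximal tubule list averaged between 15.95 and 16.71 on the 8 arrays. The list of thick ascending limb, distal convoluted tubule and collecting duct genes averaged between 15.78 and 16.56. Over all rows 215 of 22206 (0.968%) passed an adjusted p of 0.05, 99 of them higher and 116 lower at 28 weeks. Replicate 7 of the 28-week group stood apart from the other 28-week mice. On the first principal component of all rows it scored -12.9, where the 8-week arrays lay between -39.5 and -7.66 and the other 28-week arrays between 31.8 and 59.9. Replicate 1 of the 8-week group stood apart on the second component, at 65.1 against -27.8 to 15.3 in the other arrays. Counts of calls are therefore given with and without replicate 7.

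Most of the T and NK rows were dim. RMA gives no detection call, so a row was called dim where its mean at both ages was at or under 6.15, the 95th percentile of 1414 rows of olfactory and vomeronasal receptor genes, which kidney is not expected to express in quantity. By that rule 31 of the 35 rows were dim, and 19 had a mean at or under the median of the receptor rows, 4.42. The 4 rows above the limit at 1 age or both were Cd4, Cd2, Icos and Cxcr3. Probes differ in brightness for the same amount of RNA, so these levels say how well a row could be read and set no order among the genes. RMA also compresses the fold changes of dim rows.

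None of the 35 genes passed the adjusted threshold, which 0.968% of all rows passed. At an unadjusted p under 0.05 there were 9 of 35 with a higher mean at 28 weeks (25.7%, against 8.36% of all rows) and none with a lower one. The 35 adjusted p values lay between 0.105 and 0.992. The difference was positive in 29 of 35 genes (82.9%, against 48.65% of all rows), with a median of 0.20 against -0.01 over all rows. Among all 10975 rows under the same limit as the dim members 46.9% were positive and 4.31% were higher at an unadjusted p under 0.05. Among the receptor rows 27.0% were positive, with a median of -0.14. Groups that did not overlap, with all 4 mice at 28 weeks above all 4 at 8 weeks, were seen in 1 of 35 genes, Cd3d, against 4.38% of all rows. The 95% confidence interval lay within 2-fold in either direction, a log2 difference of 1, for 27 of the 35 genes. The 8 genes whose interval reached beyond were Cd3e, Cd3g, Cd4, Cd8b1, Cd2, Thy1, Icos and Gzmk.

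**Figure D1:**
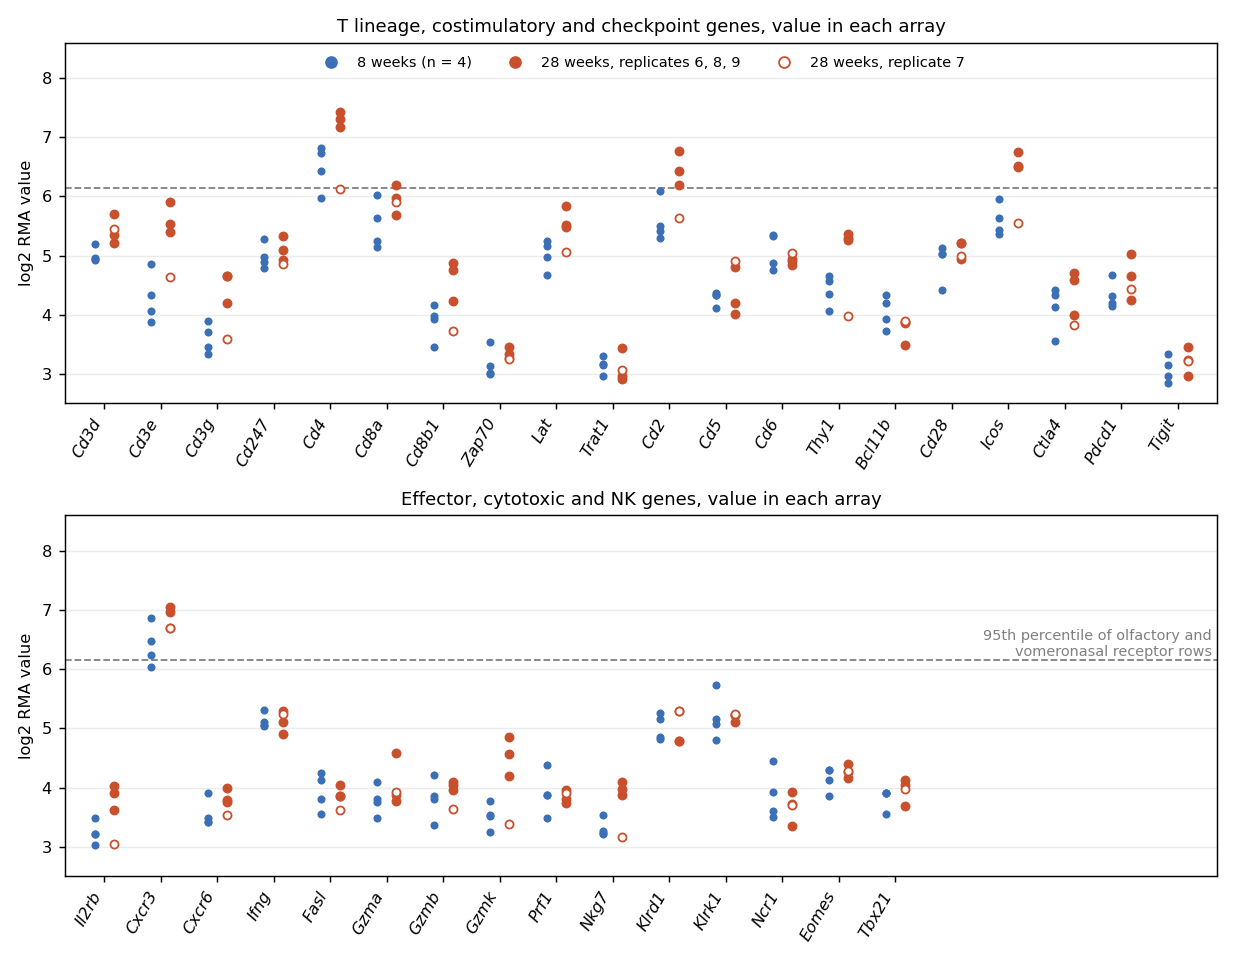
Log2 RMA value of each of the 35 measured genes (x axis) in each array, with 8-week mice in blue and 28-week mice in red, replicate 7 as an open circle. The dashed line is the limit for dim rows, 6.15; the rows of Cd4, Cd2, Icos and Cxcr3 reach above it on average at 28 weeks, and in Cd3e, Cd3g, Icos, Gzmk and Thy1 replicate 7 lies among or below the 8-week mice.

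The CD3 chains are the signalling part of the T cell receptor. Cd3g, Cd3d and Cd3e lie next to each other in the RefSeq gene order of GRCm38.p6 with no other gene between them, while Cd247, which encodes the zeta chain, lies on another chromosome. The sequences before the starts of the 3 neighbouring genes are shown because those 3 genes had the smallest p values of the CD3 group. They are from RefSeq (GRCm38.p6), 5′ to 3′ on the strand of the gene, and were limited to bases outside the gene itself. Capitals mark AGGAAG or its reverse complement, the core bound by ETS factors. TGTGGT, a RUNX core, was also searched on both strands and has no match in these 3 windows.
Cd3g (chr9:44980432-44980681, minus strand): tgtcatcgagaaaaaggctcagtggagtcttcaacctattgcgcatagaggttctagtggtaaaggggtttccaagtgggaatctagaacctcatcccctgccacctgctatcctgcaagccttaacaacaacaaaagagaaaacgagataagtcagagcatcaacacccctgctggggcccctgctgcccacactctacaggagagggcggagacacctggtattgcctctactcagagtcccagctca
Cd3d (chr9:44981536-44981768, plus strand): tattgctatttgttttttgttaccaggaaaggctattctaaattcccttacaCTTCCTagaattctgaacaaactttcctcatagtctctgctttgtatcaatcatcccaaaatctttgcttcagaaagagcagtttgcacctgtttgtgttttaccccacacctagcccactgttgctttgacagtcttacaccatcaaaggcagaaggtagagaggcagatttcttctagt
Cd3e (chr9:45009664-45009861, minus strand): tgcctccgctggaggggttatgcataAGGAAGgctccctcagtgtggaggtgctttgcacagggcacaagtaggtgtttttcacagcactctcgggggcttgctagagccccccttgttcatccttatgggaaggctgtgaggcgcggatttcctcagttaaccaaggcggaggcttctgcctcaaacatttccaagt

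An AGGAAG match was found in the Cd3d and Cd3e windows and none in that of Cd3g. Promoter sequences were matched for 29 of the 38 genes. Matches were counted in the first 250 bases of each promoter entry, which were not limited to bases outside the gene as the sequences shown were. AGGAAG on either strand was in 17 of 34 windows of these genes (50%). The share was 29.5% over all 32851 windows searched, which left out a chromosome. TGTGGT on either strand was in 13 of the 34 windows (38.2%), against 14% of all windows searched. TATAAA, searched in the same way, was in 3 of the 34 windows (8.82%), against 12.4%. These are letter matches and no evidence of binding.

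Cd3e, the epsilon chain, was 4.06, 4.86, 4.34 and 3.88 in the 8-week mice and 5.90, 4.64, 5.54 and 5.40 in 28-week replicates 6, 7, 8 and 9. Replicates 6, 8 and 9 lay above every 8-week mouse, and replicate 7 lay inside the 8-week range. The difference was 1.09 ± 0.29 (SE; 2.12-fold, 95% confidence interval 0.45 to 1.72, adjusted p = 0.105). Cd3g, the gamma chain, was 3.34, 3.45, 3.71 and 3.89 at 8 weeks and 4.65, 3.59, 4.65 and 4.19 at 28 weeks (difference 0.67, adjusted p = 0.22), and replicate 7 again lay inside the 8-week range. Cd3d, the delta chain, was 5.19, 4.95, 4.96 and 4.92 at 8 weeks and 5.70, 5.45, 5.35 and 5.21 at 28 weeks. Its groups did not overlap, by a gap of the lowest 28-week value of 5.21 to the highest 8-week value of 5.19, and the difference was 0.42 ± 0.15 (SE, adjusted p = 0.203). Cd247 was 4.98 ± 0.21 at 8 weeks and 5.06 ± 0.21 at 28 weeks, a difference of 0.07 (95% confidence interval -0.29 to 0.44, adjusted p = 0.90). The neighbouring CD3 genes thus had larger differences than Cd247 in these arrays, a contrast between rows that was not tested.

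The 3 coreceptor genes all had positive differences. Cd4, the coreceptor of helper T cells, which some macrophages and dendritic cells also carry, was 6.43, 6.73, 6.82 and 5.98 at 8 weeks and 7.42, 6.12, 7.31 and 7.18 in replicates 6 to 9. Replicate 7 was near the lowest 8-week mouse and the others were above all 4 (difference 0.52, 95% confidence interval -0.14 to 1.18, adjusted p = 0.476). Cd8a and Cd8b1, the chains of the coreceptor of cytotoxic T cells, are also neighbours with no gene between them. Cd8a was 5.51 ± 0.40 at 8 weeks and 5.94 ± 0.21 at 28 weeks (difference 0.43, adjusted p = 0.385). Cd8b1 was 3.88 ± 0.30 and 4.40 ± 0.52 (difference 0.52, adjusted p = 0.396). The groups overlapped in all 3 genes.

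Among the genes of proximal signalling, Lat, the membrane adaptor of the receptor, was 5.01 ± 0.26 at 8 weeks and 5.47 ± 0.32 at 28 weeks (difference 0.46, adjusted p = 0.303). Zap70, the kinase recruited to CD3, was 3.17 ± 0.25 and 3.32 ± 0.09, and Trat1, which encodes an adaptor that associates with the receptor, was 3.15 ± 0.14 and 3.10 ± 0.23. The rows of Zap70 and Trat1 were among the dimmest, at or above only 3.82% and 1.84% of the receptor rows. Of the surface molecules of the T lineage, Cd2, an adhesion receptor shared with NK cells, was 5.41, 5.30, 5.50 and 6.10 at 8 weeks and 6.43, 5.64, 6.77 and 6.20 at 28 weeks (difference 0.68, adjusted p = 0.234). Only replicate 7 of the 28-week mice lay inside the 8-week range of Cd2.

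Thy1, a surface glycoprotein of T cells that fibroblasts and other cells also carry, was 4.65, 4.06, 4.35 and 4.57 at 8 weeks and 5.29, 3.97, 5.27 and 5.36 at 28 weeks (difference 0.57, adjusted p = 0.429). Replicate 7 was lower than every 8-week mouse and the other 28-week mice were higher than all of them. Cd5 and Cd6, related receptors that restrain T cell signalling, did not show this pattern. Cd5 was 4.29 ± 0.11 at 8 weeks and 4.48 ± 0.44 at 28 weeks, with its highest value, 4.90, in replicate 7. Cd6 was 5.07 ± 0.31 and 4.94 ± 0.09 (difference -0.14, adjusted p = 0.795). Bcl11b, a transcription factor needed for the T lineage, had the lowest difference of the 35 genes, at -0.27 (adjusted p = 0.539), from 4.05 ± 0.27 at 8 weeks to 3.78 ± 0.20.

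Icos, a costimulatory receptor of activated and follicular helper T cells, had the clearest difference among the rows above the dim limit. It was 5.37, 5.43, 5.64 and 5.95 at 8 weeks and 6.50, 5.55, 6.75 and 6.51 in replicates 6 to 9 (difference 0.73 ± 0.26 SE, 1.66-fold, adjusted p = 0.20). Replicates 6, 8 and 9 lay above all 8-week mice and replicate 7 among them. Cd28, which lies close to Ctla4 and Icos with no protein-coding gene between these 3 in RefSeq order, was 4.90 ± 0.32 at 8 weeks and 5.10 ± 0.14 at 28 weeks (difference 0.20, adjusted p = 0.679). The inhibitory receptors had small differences. Pdcd1, which encodes PD-1, was 4.33 ± 0.24 and 4.59 ± 0.34, Ctla4 was 4.11 ± 0.39 and 4.28 ± 0.43, and Tigit was 3.08 ± 0.22 and 3.22 ± 0.20, with adjusted p between 0.611 and 0.835. For all 3 the 95% confidence interval lay within 2-fold.

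A group of 3 genes encodes receptors for cytokines and chemokines that draw or keep T and NK cells in tissue. Cxcr3, the receptor of CXCL9 and CXCL10, was 6.24, 6.03, 6.47 and 6.87 at 8 weeks and 6.70, 6.70, 6.96 and 7.06 at 28 weeks (difference 0.45, adjusted p = 0.306). In Cxcr3 the highest 8-week mouse lay above 28-week replicates 6 and 7. Il2rb, the shared beta chain of the interleukin-2 and interleukin-15 receptors, was 3.23 ± 0.19 and 3.65 ± 0.44 (difference 0.41, adjusted p = 0.423). Cxcr6, the receptor of CXCL16, was 3.56 ± 0.23 and 3.77 ± 0.19 (difference 0.21, adjusted p = 0.629).

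The 5 cytotoxic granule genes had differences from -0.05 to 0.73, and none passed the threshold. Gzmk, a granzyme of memory CD8 T cells, was 3.25, 3.78, 3.52 and 3.53 at 8 weeks and 4.85, 3.39, 4.56 and 4.20 in replicates 6 to 9 (difference 0.73, 1.66-fold, adjusted p = 0.249). Nkg7, a granule membrane protein of NK and CD8 T cells, was 3.53, 3.21, 3.26 and 3.23 at 8 weeks and 3.87, 3.17, 4.09 and 3.98 at 28 weeks (difference 0.47, adjusted p = 0.318). In both genes replicates 6, 8 and 9 were above all 8-week mice and replicate 7 was not. Gzma, which neighbours Gzmk with no protein-coding gene between them, was 3.79 ± 0.25 at 8 weeks and 4.04 ± 0.37 at 28 weeks, and its highest value, 4.59, was in replicate 6. Gzmb was 3.81 ± 0.34 and 3.93 ± 0.21, and Prf1, which encodes perforin, was 3.91 ± 0.37 and 3.85 ± 0.10 (difference -0.05, 95% confidence interval -0.47 to 0.36). All 5 rows were dim, with means at or under the median of the receptor rows.

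NK receptors and the effector cytokine had differences near 0. Klrd1 and Klrk1, lectin-like receptors of NK cells that lie side by side in the NK gene complex, differed by 0.02 (95% confidence interval -0.39 to 0.42) and 0.01 (-0.42 to 0.44). Ncr1, which encodes the natural cytotoxicity receptor NKp46, was 3.87 ± 0.42 at 8 weeks and 3.68 ± 0.24 at 28 weeks (difference -0.19, adjusted p = 0.767). Ifng, the gene of interferon-gamma, was 5.04, 5.31, 5.05 and 5.11 at 8 weeks and 4.91, 5.25, 5.29 and 5.11 at 28 weeks, a difference of 0.01 (95% confidence interval -0.30 to 0.33, adjusted p = 0.984). Fasl, the death ligand of cytotoxic cells, had a difference of -0.09. Tbx21 and Eomes, the T-box factors of type 1 and cytotoxic lymphocytes, had differences of 0.14 each (adjusted p = 0.754 and 0.746). All 7 rows were dim, so a change in transcripts below what these rows can read is not tested by them. The sign of the Klrd1, Klrk1 and Ifng differences turned negative with each array centred on its median, with cyclic loess and with centring on ribosomal and reference genes, and that of Klrk1 also with quantile normalization.

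**Figure D2:**
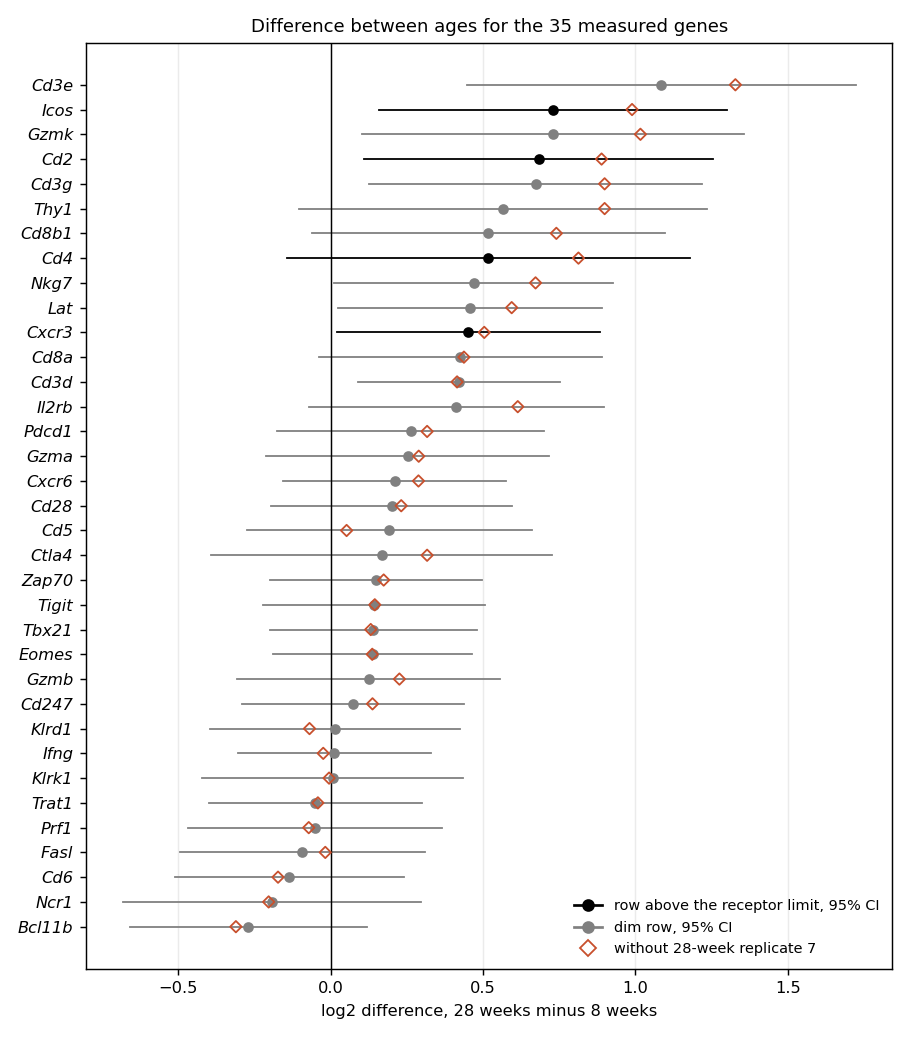
Log2 difference between 28 and 8 weeks (x axis) for each of the 35 genes, with the 95% confidence interval from limma as a line, black for rows above the dim limit and grey for dim rows; open red diamonds are the differences without 28-week replicate 7. The differences run from -0.27 for Bcl11b to 1.09 for Cd3e.

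Set side by side, the 20 measured T lineage, costimulatory and checkpoint genes had a median difference of 0.34, with 17 positive. The 15 effector, cytotoxic and NK genes had a median of 0.14, with 12 positive. Whether these parts of the gene set differ was not tested.

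The 28-week mice did not share the pattern equally. The number of the 35 genes that were higher than in every 8-week mouse was 19 in replicate 6, 4 in replicate 7, 20 in replicate 8 and 15 in replicate 9 (54.3%, 11.4%, 57.1% and 42.9%, against 22%, 18.1%, 20.7% and 23.2% of all rows). The mean over the 35 genes of the difference from the 8-week mean was 0.41, 0.02, 0.40 and 0.25 in these mice, and between -0.09 and 0.09 in the 8-week mice. Replicate 7 lay inside the 8-week range in 29 genes, above it in 4 and below it in 2. Without replicate 7 there were 6 of 35 genes past the threshold, all higher at 28 weeks, where 3.63% of all rows were higher in that fit. They were Cd3e (difference 1.33, adjusted p = 0.0131), Icos (0.99, adjusted p = 0.0129), Gzmk (1.02, adjusted p = 0.0172), Thy1 (0.90, adjusted p = 0.0173), Cd3g (0.90, adjusted p = 0.0285) and Nkg7 (0.67, adjusted p = 0.0348). In that fit 12 of 35 genes had groups that did not overlap, with the 28-week mice above (34.3%, against 9.47% of all rows). Replicate 7 was known to stand apart before this choice, so the calls without it describe the other 7 mice only. With array weights in place of leaving out a mouse, 1 of the 35 genes passed, Cd3e (difference 1.15, adjusted p = 0.0455). In that fit a larger share of all rows passed, in either direction, than of the 35 genes. The Cd3e call with array weights therefore does not set these genes apart from the rest of the array.

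Lists of other leukocytes were averaged over the same arrays. The list of 10 pan-leukocyte genes had a mean difference from the 8-week mean of 2.58, -0.02, 2.03 and 1.53 in replicates 6, 7, 8 and 9, and between -0.18 and 0.23 in the 8-week mice. Its mean level was 5.81 to 6.22 at 8 weeks and 5.98 to 8.58 at 28 weeks. The 11 macrophage genes were at 3.90, 0.10, 3.19 and 2.91, with a mean level of 6.17 to 6.80 at 8 weeks and 6.52 to 10.32 at 28 weeks. The 9 measured B cell genes were at 1.22, 0.18, 0.55 and 0.28, with 8 of the 9 rows dim, and a mean level of 3.82 to 3.96 at 8 weeks and 4.05 to 5.09 at 28 weeks. All 10 pan-leukocyte, 11 of 11 macrophage and 9 of 9 B cell genes had positive differences, with none past the threshold. Without replicate 7, 7 of 10 pan-leukocyte, 10 of 11 macrophage and 1 of 9 B cell genes passed, all higher (3.63% of all rows). The dendritic cell list averaged 0.21, 0.07, 0.31 and 0.41 in replicates 6, 7, 8 and 9 and the neutrophil list 0.35, 0.10, 0.43 and 0.24. These averages lay near those of the T and NK genes, but 1 gene of each list had by far the largest difference. It was 1.19 for Xcr1 in the dendritic cell list, whose median was 0.11. In the neutrophil list it was 1.30 for Csf3r, with a list median of 0.10. The plasma cell list averaged 1.82, 0.56, 1.09 and 0.10. Of its 6 genes Jchain had by far the largest difference, 4.77. The median of the list was 0.28, and 2 genes had negative differences. The lowest-p genes were Laptm5 (difference 2.55, adjusted p = 0.0897) and Cd53 (adjusted p = 0.0969) of the pan-leukocyte list, Lyz2 (adjusted p = 0.0607) and C1qa (adjusted p = 0.0901) of the macrophage list, and Bank1 (adjusted p = 0.192) and Blk (adjusted p = 0.232) of the B cell list. Several T cell markers, among them Cd4, Cd2 and Thy1, are carried by other cells as well, and the part of those cells in the differences was not tested.

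**Figure D3:**
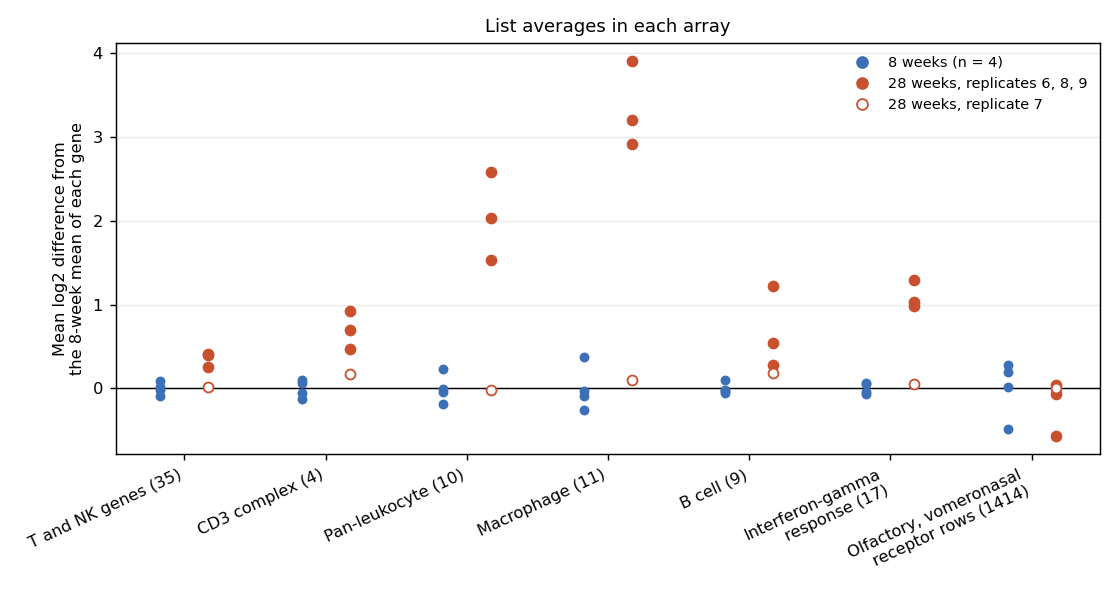
Mean over the genes of a list of the log2 difference from each gene's 8-week mean (y axis), in each array, for the T and NK genes, the CD3 complex, 4 lists of other cells or responses, and 1414 olfactory and vomeronasal receptor rows. Replicates 6, 8 and 9 (filled red) lie above the 8-week mice (blue) in all but the receptor rows, and replicate 7 (open red) lies near 0 for the T and NK genes.

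The dim background itself was not level across the arrays. The mean of the receptor rows was 0.56 under its 8-week mean in 28-week replicate 6 and 0.49 under it in 8-week replicate 1, and between -0.06 and 0.27 in the other arrays. The part of this drift in the differences of dim rows was not tested. Without 8-week replicate 1 none of the 35 genes passed the threshold, and 27 had a positive difference.

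Other genes of the pathway, taken from lists that exclude the 35, were read in the same way. Beside each count with all 8 mice stands the count without replicate 7, where 3.63% of all rows were higher and 1.95% lower past the threshold. Of 27 further genes of T cell receptor signalling and adaptors 25 were measured, 19 had a positive difference and none passed, with a median of 0.21, and 5 passed without replicate 7, all higher. Cd69, an early activation marker of lymphocytes, was 4.45, 4.41, 5.51 and 5.09 at 8 weeks and 6.29, 5.75, 6.48 and 6.06 at 28 weeks, with no overlap (difference 1.28, 2.43-fold, adjusted p = 0.0576). Fyb, an adaptor shared by T and myeloid cells, was 4.74 ± 0.19 and 6.79 ± 1.20 (difference 2.05, adjusted p = 0.0807). Of 33 measured T cell subset genes 25 had a positive difference and none passed, with a median of 0.25, and without replicate 7 there were 3 higher and 1 lower. Tox, a factor of persistently stimulated CD8 T cells, was 5.13 ± 0.39 and 5.96 ± 0.30 (difference 0.83, adjusted p = 0.108), and its groups did not overlap. Maf, a factor that kidney tubule cells also express, had a difference of -0.98 (adjusted p = 0.0606). Of 21 measured NK and cytotoxic genes outside the set 14 had a positive difference and none passed, with a median of 0.15, and 4 passed without replicate 7, all higher. Serpinb9, an inhibitor of granzyme B, had a difference of 1.10 (adjusted p = 0.0807), and Tyrobp, a signalling adaptor of NK and myeloid cells, one of 2.22 (adjusted p = 0.115). Of 17 measured genes of the interferon-gamma response 14 had a positive difference and none passed, with a median of 0.92, and 12 passed without replicate 7, all higher. The GTPase gene Igtp had a difference of 1.76 (adjusted p = 0.0752) and the peptide transporter gene Tap1 one of 1.40 (adjusted p = 0.102). The Ifng row itself differed by 0.01, but it was dim, and a change below what it can read is not tested by it.

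Ligands and binding partners of these receptors were read from a list of 24 genes. Of 21 measured, 18 had a positive difference, against 48.65% of all rows. With all 8 mice 1 rose and 1 fell past the threshold, which 0.968% of all rows passed in either direction. Without replicate 7 the counts were 6 and 1, where 3.63% of all rows were higher and 1.95% lower. Icosl, the ligand of ICOS, was 8.51, 8.10, 7.92 and 8.47 at 8 weeks and 9.34, 9.11, 9.15 and 9.45 at 28 weeks, a rise of 1.01 ± 0.17 (SE; 2.02-fold, adjusted p = 0.0335). All 4 mice at 28 weeks, replicate 7 included, lay above all 4 at 8 weeks, as in 4.38% of all rows. Il15, the cytokine that sustains NK and memory CD8 T cells and is made by kidney tubule cells among others, was 10.64, 10.70, 10.66 and 10.96 at 8 weeks and 9.33, 9.97, 9.19 and 9.38 at 28 weeks. It fell by 1.27 on the log2 scale (2.42-fold lower, adjusted p = 0.0221), and replicate 7 lay between the 8-week mice and the other 28-week mice. Without 28-week replicate 7 the adjusted p was 0.000738 for Il15 and 0.0112 for Icosl, and without 8-week replicate 1 it was 0.0446 and 0.0463. Leaving out any of the other 6 mice ended both calls. The number of rows past the threshold over the whole array also changed with the mouse left out, as given below. With 1 array left out the difference was between -1.44 and -1.18 for Il15 and between 0.90 and 1.10 for Icosl. With 8-week replicate 2, 3 or 4 left out, Il15 had adjusted p = 0.0709, 0.0672 or 0.0805, and Icosl 0.113, 0.0834 or 0.0823. With 28-week replicate 6, 8 or 9 left out, Il15 had adjusted p = 0.0677, 0.0725 or 0.0991, and Icosl 0.0931, 0.0926 or 0.128. Both differences kept their sign throughout, which the lack of overlap fixes.

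Another 4 partner genes were chosen after their values were seen. Il15ra, which presents interleukin-15 to neighbouring cells, had a difference of -0.39 (adjusted p = 0.359), from 7.89 ± 0.30 at 8 weeks to 7.50 ± 0.21. The CXCR3 ligand gene Cxcl10 was 4.88 ± 0.44 and 6.68 ± 0.76 (difference 1.79, adjusted p = 0.0501). Cxcl9, another ligand of CXCR3, was 6.12, 4.99, 5.58 and 5.16 at 8 weeks and 8.51, 5.64, 7.99 and 6.51 at 28 weeks (difference 1.70, adjusted p = 0.171). Cxcl16, the ligand of CXCR6, was 11.70 ± 0.24 and 12.91 ± 0.50 (difference 1.22, adjusted p = 0.0516), and its groups did not overlap. Without replicate 7 Cxcl9, Cxcl10 and Cxcl16 passed the threshold (adjusted p = 0.02, 0.00163 and 0.00337). Cxcl11, a further CXCR3 ligand on the list, did not pass without replicate 7 (adjusted p = 0.1012). With all 8 mice its difference was 0.96 (adjusted p = 0.1485).

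**Figure D4:**
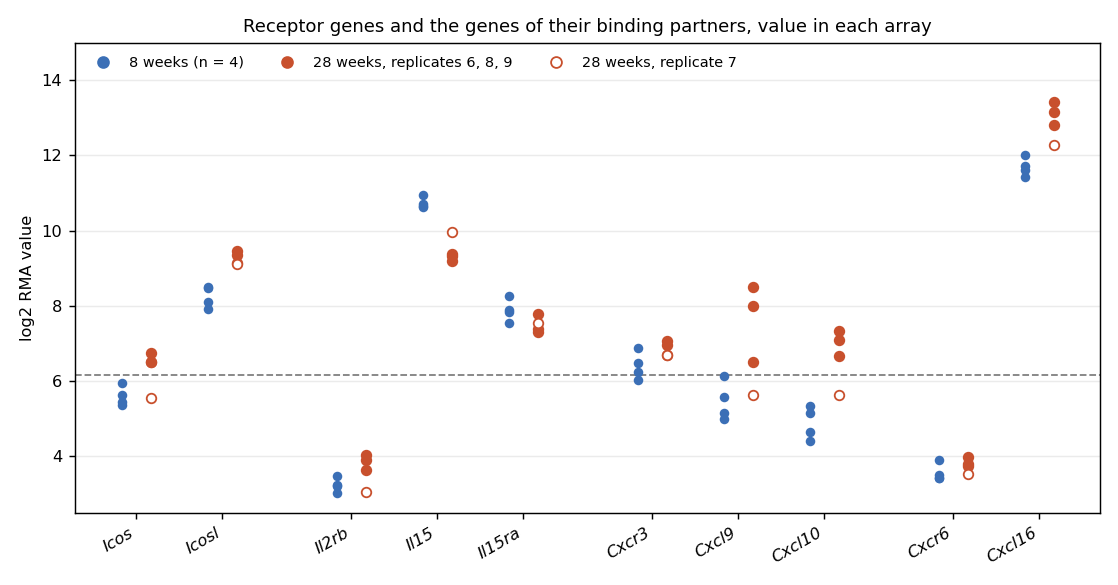
Log2 RMA value (y axis) in each array of 4 receptor genes and, to the right of each, the genes of their binding partners, with 8-week mice in blue, 28-week mice in red and replicate 7 open; the dashed line is the dim limit of 6.15. The ages do not overlap in Icosl, Il15, Cxcl10 and Cxcl16, and Il15 is lower at 28 weeks.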

How the data were processed

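Kidney total RNA of 8 mice was measured on 1-colour Clariom S Mouse arrays, labelled as biotinylated cRNA per the labels' protocols. The deposited values are log2 expression values. The submitters' processing notes name RMA without a version or settings, and the log base was taken as 2 from the range of the values, 2.31 to 19.89. All 22206 rows were tested with lmFit and eBayes in limma 3.58.1 (R 4.3.3), threshold 0.05, without a filter. The platform annotation named 19572 rows with 1 gene symbol, none with several, and left 2634 unnamed. The brightest row by mean over the 8 arrays stood for a gene. The labels give no litter, cage or batch, so p-values measure only the spread between these samples, and the number of arrays limits the precision. The test was tried on simulated data.

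The 38 genes, the 15 context lists (204 names, 185 measured) and the tests were chosen with earlier results of these data known. The rule named members past the threshold or without overlap and up to 3 per role by smallest p, and the other measured members are given by value as well. Of a context list, the text names members past the threshold or else the 2 with the smallest p. Alternatives were 4 scalings, 2 filters on dim rows, 1 row per gene, the mean of a gene's rows, 3 variance models, a threshold of 0.01 and left-out arrays. Promoter windows were searched and plots drawn with Python 3.11.15 (pandas 2.3.3, matplotlib 3.10.9).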

Additional observations from a re-analysis of the deposited data

Results flagged for a closer look

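In 9 of 70 sets of 4 mice (35 genes at each age) 1 mouse lay far from the other 3, by the ratio of its gap to the whole range, where chance gives about 1 in 20. At 28 weeks Thy1 was 3.97 in replicate 7, against 5.27 in the nearest mouse, Bcl11b was 3.48 in replicate 6, against 3.86, and Klrk1 was 5.11 in replicate 6, against 5.23. At 8 weeks replicate 1 stood apart in 4 genes, with Cd3d at 5.19, Nkg7 at 3.53, Cd28 at 4.42 and Tbx21 at 3.56. Cd5 was 4.12 in 8-week replicate 2 and Cxcr6 was 3.90 in 8-week replicate 3. The Cd3d value of 5.19 is also the one that nearly meets the lowest 28-week value of 5.21. The cause of these gaps was not tested.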

How the results depend on the processing

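No paired analysis was possible because the ages share no replicate number. The count of members past the threshold, 0 as reported, was 1 with array weights, 6 without both 8-week replicate 1 and 28-week replicate 7, and from 0 to 6 with 1 array left out, the 6 being without 28-week replicate 7. The count of positive differences was 13 of 14 members tested without the dimmest 33.3% of rows and 2 of 2 without the dimmest 50%. These filters left fewer members to count. The median differences of the members they kept were 0.42 and 0.49. In the main fit the median was 0.17 over the 31 dim members and 0.60 over the 4 above the dim limit. Under the other alternatives the count of positive differences was 26 to 29 of 35. The median member difference was 0.1617 to 0.2883 with 1 array left out. It was 0.1388 with arrays centred on their medians and 0.1457 with ribosomal and reference genes. With quantile normalization it was 0.1883 and with cyclic loess 0.1896. The number of rows past the threshold over the whole array, 215, was 399 without the dimmest 50%, 402 with a trend in eBayes, 873 with array weights, 18 at an adjusted p under 0.01, 1384 without both arrays and 25 to 1237 with 1 array left out. No scaling moved the median of all rows by over 0.1. By a limit at the dimmest 33.3% of all rows 21 members were dim instead of 31. Signs turned for 9 members. With arrays centred on their medians the differences were -0.0487 for Ifng, -0.0462 for Klrd1 and -0.0537 for Klrk1. With cyclic loess they were -0.0082, -0.0033 and -0.0147. With ribosomal and reference genes they were -0.0418, -0.0393 and -0.0468. Without both arrays they were -0.0533, -0.0233 and -0.1333. Klrk1 was -0.01 with quantile normalization and -0.0389 with array weights. With 1 array left out the differences ranged from -0.0375 to 0.0892 for Ifng, -0.0725 to 0.1008 for Klrd1, -0.1208 to 0.1892 for Klrk1, -0.0192 to 0.1717 for Cd247, -0.0158 to 0.3167 for Ctla4, -0.2183 to 0.0117 for Fasl, -0.0208 to 0.2592 for Gzmb, -0.1942 to 0.1058 for Prf1 and -0.1617 to 0.0083 for Trat1. The cause of these shifts was not tested.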

Other observations

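Lists of further cell types gave these values, with all 8 mice unless stated. Without 28-week replicate 7, 1 gene each of the dendritic cell, plasma cell, neutrophil, and endothelium and fibroblast lists passed, all higher (3.63% of all rows). In that fit 2 proximal tubule genes and Slc12a3 of the thick ascending limb, distal convoluted tubule and collecting duct list passed, all lower. Over all rows 1.95% were lower past the threshold in that fit. No podocyte gene passed. Of 7 dendritic cell genes 5 had a positive difference and none passed. Xcr1, the chemokine receptor of cross-presenting dendritic cells, had a difference of 1.19 (adjusted p = 0.127), and Itgax had a difference of 0.52 (adjusted p = 0.346). Of 6 plasma cell genes 4 had a positive difference and none passed. Jchain, which joins immunoglobulin subunits, was 12.79, 7.52, 10.47 and 5.83 in 28-week replicates 6, 7, 8 and 9 and between 3.49 and 5.08 at 8 weeks (adjusted p = 0.0971). In this gene all 4 mice at 28 weeks, replicate 7 included, lay above the 8-week mice. Sdc1 had a difference of 0.52 (adjusted p = 0.15). Of 6 measured neutrophil genes 5 had a positive difference and none passed, and all 6 rows were dim. Csf3r had a 2.47-fold higher mean at 28 weeks (adjusted p = 0.0853), and S100a8 a 1.10-fold higher one (adjusted p = 0.736). All 5 genes of endothelium and fibroblasts had a positive difference and none passed, with 0.68 for Cdh5 (adjusted p = 0.166) and 0.38 for Emcn (adjusted p = 0.39).

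Of 6 proximal tubule genes all had a negative difference, and Slc22a6, an organic anion transporter, fell by 0.91 (adjusted p = 0.0313). The Slc22a6 call was lost without 8-week replicate 1, 3 or 4 (adjusted p = 0.0637, 0.0868 and 0.102) and without 28-week replicate 6, 8 or 9 (adjusted p = 0.086, 0.0849 and 0.123). With 1 array left out its difference was between -1.015 and -0.85. Podocyte genes had 1 positive and 3 negative differences among 4 measured, with -0.48 for Podxl (adjusted p = 0.308) and -0.27 for Wt1. Of 4 genes of the thick ascending limb and collecting duct 3 had a positive difference and none passed, with 0.99 for Slc12a1 (adjusted p = 0.0916) and -0.68 for Slc12a3 (adjusted p = 0.212).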
